A study of Homo sapiens with 7 samples.

Results

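The replication-dependent histone genes were the 70 genes of the deposited count table, out of 66025 genes, whose symbol is one of H1-1 to H1-6 or begins with H2AC, H2BC, H3C or H4C followed by a number, with 13 pseudogenes left out. They comprised 6 H1, 17 H2A, 19 H2B, 13 H3 and 15 H4 genes, with 55 in the cluster at 6p22, 11 at 1q21 and 4 elsewhere. The libraries were total RNA from H1 human embryonic stem cells differentiated to stage 6 β-like cells and sorted for staining with DA-ZP1, a fluorescent zinc probe that marks insulin-containing cells. H1 cells had been transduced with lentiviral particles, selected in puromycin, and carried a doxycycline-inducible shRNA against METTL14, which belongs to the complex that writes m6A on mRNA (iKD2), or a non-targeting shRNA (iSCR). The groups were iKD2 with doxycycline (iKD2 Dox+, n = 3, libraries a, b and c), iKD2 without doxycycline (iKD2 Dox-, n = 2, b and c) and iSCR with doxycycline (iSCR Dox+, n = 2, a and b). All 7 libraries thus came from 1 parent line and from cells that had been transduced and selected, and iKD2 Dox- and iSCR Dox+ differ in both the shRNA and the drug. Values of single libraries are given in the order of the letters. The study calls the libraries of a group independent biological samples, without saying whether each letter was a separate differentiation.

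Replication-dependent histone mRNAs supply the H2A, H2B, H3 and H4 proteins that form the nucleosome core and the linker histone H1, and are made mainly in S phase, when new DNA is packed into chromatin. Unlike other mRNAs, most end in a conserved stem-loop instead of a poly(A) tail. The stem-loop is bound by SLBP and cut by a machinery that includes the U7 snRNP, while NPAT and CASP8AP2 act at the histone loci in transcription. Replication-independent variants such as H3-3A, H3-3B and H2AZ1 are expressed through the cell cycle from ordinary polyadenylated mRNAs. A poly(A) selection loses most of the former class, whereas the total RNA kit used here does not select for a tail.

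The stem-loop that sets these mRNAs apart was searched for in the GENCODE release 29 coding transcripts. A gene was counted where its model held the stem-loop, whose place relative to the stop codon is not given. The stem-loop was present in 23 of the 70 members (32.9%) and in 1 of 19614 other coding genes (0.0051%). Only 31 members have a transcript model with at least 60 bases after the stop codon, and 22 of those 31 hold it, so that for many members the model ends before the place where it would lie. By type it was found in 7 H2A, 8 H2B, 3 H3 and 5 H4 genes and in none of the 6 H1 genes, whose models all have fewer than 60 bases after the stop. The sequences below run 5′ to 3′, are shown because they carry the feature shared across types, and have the stem-loop in capitals with 5 bases on either side.
H2AC8: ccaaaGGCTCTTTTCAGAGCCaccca
H2AC11: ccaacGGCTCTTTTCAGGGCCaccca
H2AC19: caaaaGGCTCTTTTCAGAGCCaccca
H2BC6: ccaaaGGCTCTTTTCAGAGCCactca
H3C14: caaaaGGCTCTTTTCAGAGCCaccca
H4C5: tcaaaGGCCCTTTTCAGGGCCgccca
H4C8: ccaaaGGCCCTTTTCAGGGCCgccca
Of the 23 members, 17 H2A, H2B and H3 genes share the form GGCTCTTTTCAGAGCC, the 5 H4 genes share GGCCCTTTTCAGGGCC, and H2AC11 alone has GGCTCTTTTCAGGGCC, with the 5′ arm of the first form and the 3′ arm of the second. Only the Y and R positions of the pattern could differ between these genes, since the search fixed the other bases in advance.

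Promoters were read from RefSeq for build GRCh38.p14, from 250 bases before to 50 bases after each gene's start, and 64 of the 70 members matched. On both strands, the letters CCAAT were present in all 6 H1, 16 H2A, 18 H2B and 11 H3 promoters but in only 3 of 13 H4 promoters, against 35.6% of 27241 other promoters. The letters TATAAA were in 42 of 64 members (65.6%) and in 11.8% of other promoters. The octamer ATTTGCAT, known as the binding sequence of POU2F1, was in 14 of 18 H2B and 11 of 16 H2A promoters, in 1 H3 promoter (H3C4, whose octamer is the 1 shared by H2AC7 and H2BC7) and in no H1 or H4 promoter, against 1.71% of others. The letters AAACACA, the H1 box, were in all 6 H1 promoters and in 5.74% of others, and TTTCGCGC, an E2F-type site, in 12 of 64 members (18.8%) and 0.503% of others. Many H2A and H2B genes lie head to head, and the same octamer is then counted in both promoters, as the following windows of 30 bases with the octamer in capitals show.
H2AC8 (chr6:26216718-26216747, plus strand): ataggcctttcATGCAAATaaagaattcaa
H2BC8 (chr6:26216718-26216747, minus strand): ttgaattctttATTTGCATgaaaggcctat
H2AC20 (chr1:149886710-149886739, plus strand): ataaccaccttATGCAAATtagggctccga
H2BC21 (chr1:149886710-149886739, minus strand): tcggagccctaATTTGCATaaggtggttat
H2BC6 (chr6:26183642-26183671, plus strand): taagctccttcATTTGCATgcagacttcac
H2AC8 and H2BC8, and likewise H2AC20 and H2BC21, share 1 genomic window read from opposite strands. The octamer of H2BC6 starts 108 bases before the gene's start, and that of H2BC8 starts 48 bases before it.

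The libraries held 14875429 to 20639156 estimated counts, of which the members took 34475.6 to 47889.2, or 0.227 to 0.280% of each library. METTL14, the targeted gene, read 18.7, 16.3 and 49.1 CPM in iKD2 Dox+, 39.4 and 22.6 CPM in iKD2 Dox- and 36.1 and 32.2 CPM in iSCR Dox+. Its level was thus low in iKD2 Dox+ a and b, whereas the library labelled iKD2 Dox+ c had the highest level of the 7 and goes against its label, and iKD2 Dox- c lay below both iSCR Dox+ libraries. None of the β-cell markers was at 0 in any library. The summed level of 12 such markers, which include INS, was 25642, 29900.5 and 26029.8 CPM in iKD2 Dox+, 38106 and 34275 CPM in iKD2 Dox- and 40408 and 40655 CPM in iSCR Dox+. The summed level of 4 ductal markers (KRT19, SOX9, CFTR and SPP1) ran from 759 to 859 CPM in iKD2 Dox+ and from 375 to 490.1 CPM in the 4 control libraries. That of 3 pluripotency markers (POU5F1, NANOG and LIN28A) ran from 1.94 CPM in the library labelled iKD2 Dox+ c to 57.6 CPM in iKD2 Dox+ a. Neither POU5F1 nor NANOG was above 5 CPM, so that LIN28A held most of the highest sum. Fewer cells of a type and less RNA per cell cannot be told apart in these bulk libraries. Sums of 8 α, δ and enterochromaffin cell markers were 10894 to 14522 CPM in iKD2 Dox+ and 14088 to 18163 CPM in the controls. Those of COL1A1 and COL3A1, 2 mesenchymal markers, were 965, 532 and 777 CPM in iKD2 Dox+, 333 and 215 CPM in iKD2 Dox- and 590.2 and 530.4 CPM in iSCR Dox+, so that iKD2 Dox- was lowest and iSCR Dox+ a lay within the range of iKD2 Dox+. INS, called by edgeR in iKD2 Dox+ against iSCR Dox+ (adjusted p = 0.000471), read 11625, 13581 and 11365 CPM in iKD2 Dox+, 17393 and 14629.7 CPM in iKD2 Dox- and 22298 and 21507 CPM in iSCR Dox+. The marker sums moved with the groups and their part in the values below was not tested. Here CPM is the count scaled to library size with TMM factors, and the spread between libraries of a group was large beside counting error, with a variance 97.7 to 163 times the Poisson value.

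In stage 6 β-like cells the histone genes were expressed unequally. Of the 70 members 63 had counts in at least 1 library and 7 were at 0 in all of them (H1-1, H2AC1, H2AC18, H2BC1, H2BC12L, H3C3 and H4C7). Of the 63, 62 passed the filter on low counts and H2BC3 did not. Only 3 members reached a mean of 100 CPM and 11 a mean of 50 CPM. By median share of the summed member level, H2A genes took 28.0%, H1 genes 26.7%, H2B genes 23.7%, H3 genes 11.8% and H4 genes 9.95%, without correction for the longer H1 transcripts. H1-4, a linker histone gene, alone took 13.3 to 20.5%.

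Among the H1 genes, which encode the linker histones, H1-4 (ENSG00000168298) was the most abundant member in every library, with 399, 348 and 431 CPM in iKD2 Dox+, 367 and 455 CPM in iKD2 Dox- and 397 and 472 CPM in iSCR Dox+. The groups overlap and H1-4 varied by a within-group coefficient of variation (CV) of 12.8%. H1-2, a linker histone gene for which a polyadenylated form is documented, read 183, 138 and 136 CPM in iKD2 Dox+, 106 and 146 CPM in iKD2 Dox- and 194 and 135 CPM in iSCR Dox+. H1-5 read 107, 113 and 79.7 CPM in iKD2 Dox+, 89.9 and 127 CPM in iKD2 Dox- and 61.9 and 68.3 CPM in iSCR Dox+, so that both iSCR Dox+ libraries were lowest. H1-6, a testis linker histone gene, was near 0, with 30 counts in iKD2 Dox+ a, 79 in iKD2 Dox- b, 1 in iKD2 Dox- c and 0 in the other 4 libraries, and no fold is given for it.

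Among the H2A genes the counts of the identical copies H2AC18 and H2AC19 were all assigned to H2AC19, and H2AC18 was at 0. H2AC19 had the second-highest mean of all members, with 292, 202 and 93.4 CPM in iKD2 Dox+, 154 and 100.0 CPM in iKD2 Dox- and 216 and 253 CPM in iSCR Dox+. Its values differed by 292 against 93.4 CPM within iKD2 Dox+ alone, and the library labelled iKD2 Dox+ c was the lowest of the 7. Only 2.81% of its 31-base words occur in no other gene. H2AC8, for which 98.5% do, read 78.8, 120.1 and 96.4 CPM in iKD2 Dox+, 79.7 and 82.9 CPM in iKD2 Dox- and 76.5 and 45.4 CPM in iSCR Dox+, and H2AC20 read 39, 124 and 66 CPM in iKD2 Dox+, 75.6 and 27.8 CPM in iKD2 Dox- and 68.5 and 93.6 CPM in iSCR Dox+. Per kilobase of gene, computed for the 62 members with a gene length under 1000 bases and so not for H2BC12, H2BC4 and H2BC5, mean levels were 521 CPM for H1-4, 351 for H2AC19, 203 for H1-2, 160.2 for H2AC8, 144.0 for H3C2, 143 for H2AC20 and 117 for H4C5.

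The H2B genes with the highest means were H2BC12, H2BC4 and H2BC5, for all of which polyadenylated forms are documented. H2BC12 read 123, 101 and 76.4 CPM in iKD2 Dox+, 83.8 and 104 CPM in iKD2 Dox- and 76.6 and 113 CPM in iSCR Dox+. H2BC4 read 101, 84.6 and 114 CPM in iKD2 Dox+, 73 and 84 CPM in iKD2 Dox- and 67.8 and 98 CPM in iSCR Dox+, and H2BC5 read 37.9, 111 and 62.7 CPM in iKD2 Dox+, 79 and 89.3 CPM in iKD2 Dox- and 89.4 and 73.6 CPM in iSCR Dox+. For H2BC12 and H2BC5 the ranges of the groups overlap, while the 3 iKD2 Dox+ libraries had higher H2BC4 than both iKD2 Dox- libraries but not than iSCR Dox+ b. Together the 6 members with documented polyadenylated forms (H1-2, H2AC6, H2BC4, H2BC5, H2BC12 and H2BC21) summed to 545, 519.8 and 510.1 CPM in iKD2 Dox+, 470.3 and 476 CPM in iKD2 Dox- and 567 and 483 CPM in iSCR Dox+.

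H3C2 (ENSG00000286522) was the most abundant H3 gene, with 92.7, 99.9 and 93.5 CPM in iKD2 Dox+, 36.6 and 64.4 CPM in iKD2 Dox- and 79.7 and 48.3 CPM in iSCR Dox+. All 3 iKD2 Dox+ libraries lay above all 4 control libraries, and the 3 values differed among themselves by little. H3C4 read 41.1, 28 and 57.1 CPM in iKD2 Dox+, 18 and 19 CPM in iKD2 Dox- and 29 and 30.3 CPM in iSCR Dox+, with both iKD2 Dox- libraries lowest, but none of its 31-base words is its own, since all of them also lie in AL031777.3, an overlapping gene model that holds 98.1% of the words of H2AC7 as well. H3C8 read 28.7, 36.6 and 23 CPM in iKD2 Dox+, 33 and 32.3 CPM in iKD2 Dox- and 32.2 and 24.7 CPM in iSCR Dox+, with overlapping groups. H3C14 and H3C15 are identical copies with the same value in all 7 libraries, and their sum was 34.7, 68 and 80.7 CPM in iKD2 Dox+, 59 and 65 CPM in iKD2 Dox- and 41.3 and 17.3 CPM in iSCR Dox+.

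Among the H4 genes, most of which encode the same protein, H4C5 had the highest mean, with 78.8, 52.7 and 29.2 CPM in iKD2 Dox+, 49.3 and 54.6 CPM in iKD2 Dox- and 25.2 and 48.7 CPM in iSCR Dox+. H4C12 read 109, 14.9 and 29.1 CPM in iKD2 Dox+, 37.9 and 56.2 CPM in iKD2 Dox- and 21.4 and 10.4 CPM in iSCR Dox+, with 1 iKD2 Dox+ library far above the rest. H4C14 read 53.3, 15.8 and 44.3 CPM in iKD2 Dox+, 19.9 and 38 CPM in iKD2 Dox- and 13.9 and 13.5 CPM in iSCR Dox+, and with its identical copy H4C15 the sum was 56.5, 15.9 and 53.8 CPM in iKD2 Dox+, 29.8 and 46.9 CPM in iKD2 Dox- and 13.9 and 28.2 CPM in iSCR Dox+. H4C12 has no 31-base word of its own, since all of them also lie in H4C11, and H4C14 has 1.44%. H4C11 in turn shares 82.2% of its words with H4C12, so that the split of counts between them is an estimate. H4C11 was among the least steady members, with 2.45, 42.1 and 22.3 CPM in iKD2 Dox+, 0 and 26.7 CPM in iKD2 Dox- and 59.1 and 19.3 CPM in iSCR Dox+.

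**Figure D1:**
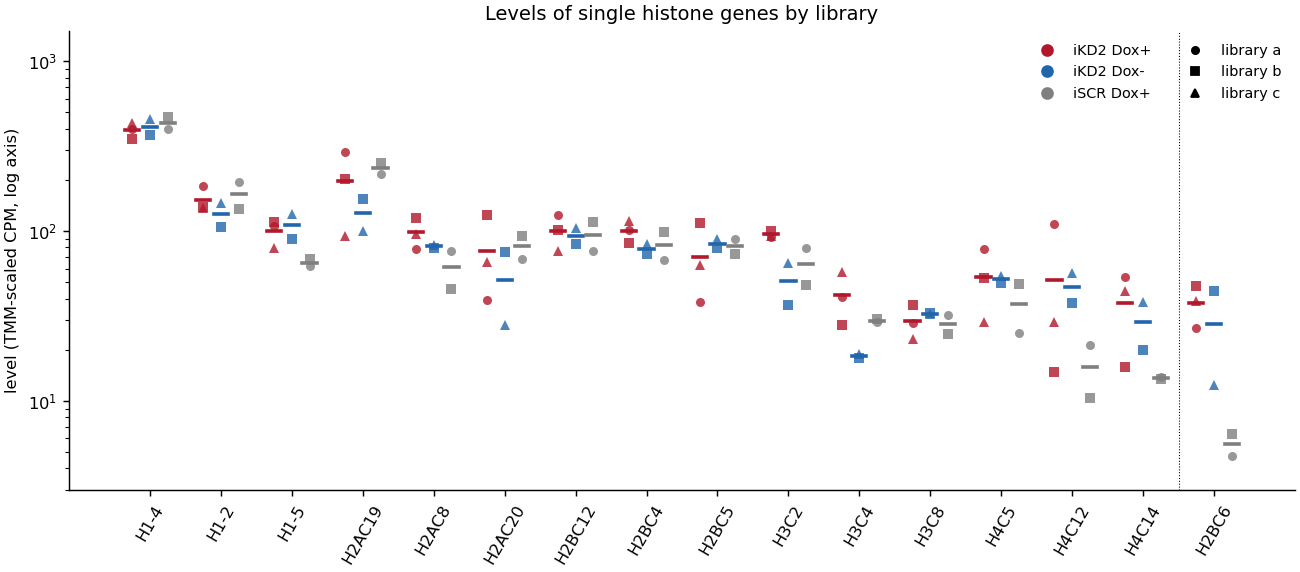
Levels of the 3 histone genes with the highest means in each type, and of H2BC6, in TMM-scaled CPM on a log axis. Each point is 1 library (symbol by letter, colour by group) and each bar the group mean. H1-4 lies at 348 to 472 CPM in all groups, the 3 iKD2 Dox+ points of H3C2 lie above all 4 control points, and both iSCR Dox+ points of H2BC6 lie at 4.74 and 6.35 CPM.

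The sum over all members varied less within groups than single members did, but not less than the H2B sum. Over all members the sum was 2865, 2610.1 and 2448 CPM in iKD2 Dox+, 2283 and 2348 CPM in iKD2 Dox- and 2504 and 2306 CPM in iSCR Dox+. The group means were 2641 ± 210.0 CPM (SD, n = 3) in iKD2 Dox+, 2315 ± 46.4 (SD, n = 2) in iKD2 Dox- and 2405 ± 140.4 (SD, n = 2) in iSCR Dox+. The log2 ratios of these means were 0.19 for iKD2 Dox+ against iKD2 Dox-, 0.14 against iSCR Dox+ and -0.05 between the controls. No iKD2 Dox+ value was as low as either value of iKD2 Dox-, and the library labelled iKD2 Dox+ c alone lay below iSCR Dox+ a. Without that library the first 2 ratios were 0.24 and 0.19. These sums are a description with no test.

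By type, the H1 sum was 718, 650.1 and 668 CPM in iKD2 Dox+, 586 and 752 CPM in iKD2 Dox- and 669 and 694 CPM in iSCR Dox+, and the H2A sum was 782, 739.8 and 588 CPM in iKD2 Dox+, 663 and 417 CPM in iKD2 Dox- and 746 and 647 CPM in iSCR Dox+. Both overlapped between all groups. The H2B sum was 629, 692 and 629.9 CPM in iKD2 Dox+, 537 and 579.6 CPM in iKD2 Dox- and 568 and 546 CPM in iSCR Dox+. All 3 iKD2 Dox+ values exceeded all 4 control values, with log2 ratios of 0.22 against each control. Those ratios became 0.49 against iKD2 Dox- and 0.80 against iSCR Dox+ when only members with whole counts in every library were summed. That narrower sum leaves out H2BC12, H2BC4 and H2BC5, the H2B genes with the highest means, and does not describe the whole type. The H3 sum was 362, 300.3 and 346 CPM in iKD2 Dox+, 269 and 302 CPM in iKD2 Dox- and 246 and 198 CPM in iSCR Dox+, in the order iKD2 Dox+, iKD2 Dox-, iSCR Dox+ by group means, with log2 ratios of 0.23 and 0.60 against the controls and 0.36 between them, while iKD2 Dox+ b lay below iKD2 Dox- c. With only whole-count members the ratio between the controls was 0.00 and that against iKD2 Dox- was 0.50. The H4 sum was 373, 228 and 217 CPM in iKD2 Dox+, 227 and 297 CPM in iKD2 Dox- and 274 and 221 CPM in iSCR Dox+, and it overlapped between all groups.

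**Figure D2:**
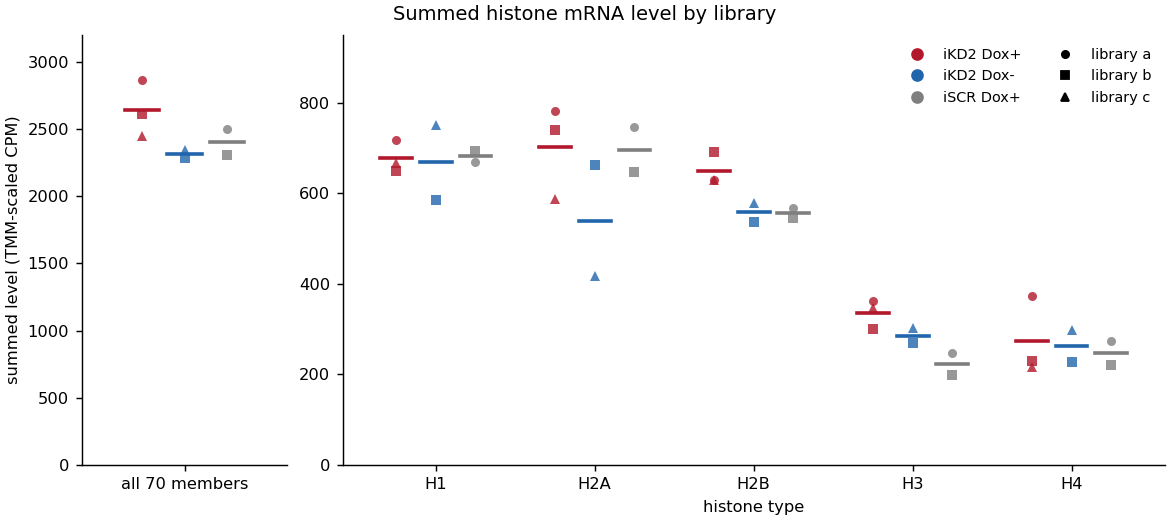
Summed TMM-scaled CPM of all 70 members (left) and of each histone type (right) in each library. Points are libraries, with symbol by letter and colour by group, and bars are group means. The 3 iKD2 Dox+ points of H2B lie at 629 to 692 CPM and the 4 control points at 537 to 580 CPM, while the groups overlap for H1, H2A and H4.

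The 55 genes at 6p22 summed to 2278, 2041 and 1955 CPM in iKD2 Dox+, 1768 and 1966 CPM in iKD2 Dox- and 1907 and 1748 CPM in iSCR Dox+, and the 11 at 1q21 to 542, 531 and 477 CPM in iKD2 Dox+, 469 and 349 CPM in iKD2 Dox- and 552 and 519.9 CPM in iSCR Dox+. At 6p22 the 3 iKD2 Dox+ libraries lay above both iSCR Dox+ libraries but overlapped iKD2 Dox-. At 1q21 they lay above both iKD2 Dox- libraries but overlapped iSCR Dox+, and iKD2 Dox- c was the lowest library. The 2 genes at 1q42 summed to 12.5 to 29.2 CPM.

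Single members varied much more between libraries of a group than their sum. The within-group CV had a median of 42.2% over tested members, from 10.1% for H2AC11 to 138% for H4C1, and was 5.81% for the sum, below that of each of the 61 tested members for which it could be computed. Had the variances of the members simply been added, the sum would have had a CV of 5.65%. Among types the CV of the sum was 4.72% for H2B, 10.7% for H1, 11.5% for H3, 21.3% for H2A and 23.1% for H4. Members with at least 80% of 31-base words of their own had a median CV of 41.6% (n = 38), and those with under 50% one of 41.4% (n = 16). Of the 62 tested members 41 (66.1%) had a dispersion below the trend of their expression level, as had 62.8% of all genes tested.

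**Figure D3:**
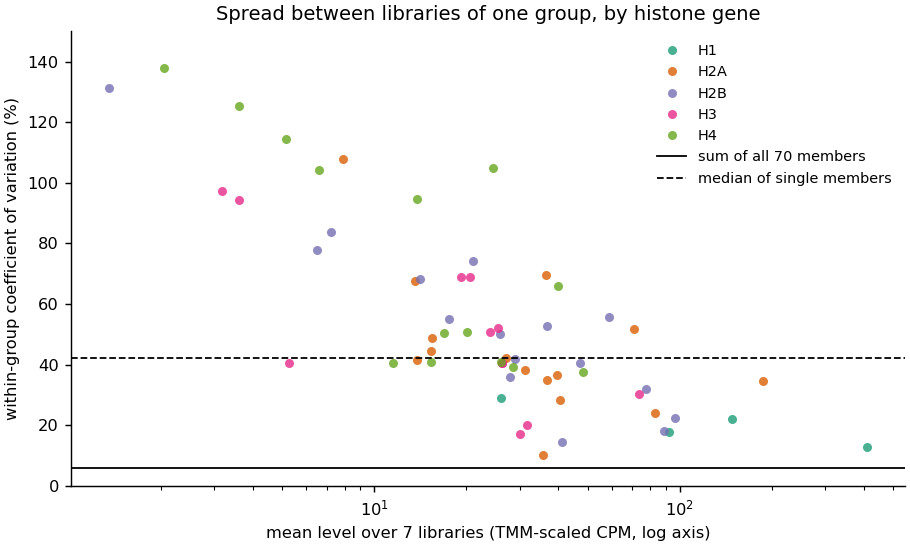
Within-group coefficient of variation in percent (vertical axis) against mean level over 7 libraries in TMM-scaled CPM on a log axis, for 61 tested members coloured by histone type. The solid line is the sum of all 70 members (5.81%) and the dashed line the median of single members (42.2%). All points lie above the solid line.

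Induction of the METTL14 shRNA was first compared within the same line, iKD2 Dox+ against iKD2 Dox-. No member passed an adjusted p of 0.05 in edgeR's quasi-likelihood test, against 9 of 22926 genes tested (0.0393%), and the lowest adjusted p of a member was 1. A single member, H3C2, had an unadjusted p under 0.05, as it did by the study's criterion of unadjusted p under 0.05 and more than 1.5-fold change, which 1.96% of all genes passed as higher and 1.59% as lower. For H3C2 the values were log2 fold change 0.92, SE 0.39, unadjusted p = 0.0288, adjusted p = 1. It was higher in 3 of 3 iKD2 Dox+ libraries than in both iKD2 Dox- libraries. DESeq2 and limma voom called no member either. The median log2 fold change of the 62 tested members was 0.12, and of all genes 0.01, with 36 members fitted above 0 and 26 below. Type medians were -0.07 for H1, 0.28 for H2A, 0.33 for H2B, -0.02 for H3 and 0.05 for H4.

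The groups did not overlap for 7 members that were higher in iKD2 Dox+ (H2AC4, H2BC4, H2BC8, H2BC9, H2BC14, H3C2 and H3C4), beside 8.72% of all genes, and for 4 that were lower (H3C1, H3C6, H3C12 and H4C1), beside 11.6%. They are 11.3% and 6.45% of the tested members. H3C4 had the highest fold that could be given (log2 fold change 1.19, SE 0.59, unadjusted p = 0.0589, adjusted p = 1). H3C6, an H3 gene named after its values were seen, had the lowest (log2 fold change -1.59, SE 0.85, unadjusted p = 0.0759, adjusted p = 1) and read 8.14, 19.9 and 8.75 CPM in iKD2 Dox+, 28.7 and 45 CPM in iKD2 Dox- and 21 and 3.41 CPM in iSCR Dox+. Both iKD2 Dox- libraries were the highest of the 7 for H3C6, and its unadjusted p was under 0.05 in 5 of 16 alternatives. The 16 include the fit to genes with whole counts alone, which did not test H3C6. H4C6 and H2BC14 were fitted higher still, and H4C1, H3C1 and H1-6 lowest, but each has a library with 3 counts or fewer in these groups. H4C6 read 2.81, 5.68 and 0.458 CPM in iKD2 Dox+, 0.731 and 0 CPM in iKD2 Dox- and 15.4 and 0.134 CPM in iSCR Dox+. H3C1 read 0, 2.37 and 3.2 CPM in iKD2 Dox+, 6.72 and 8.93 CPM in iKD2 Dox- and 1.08 and 0 CPM in iSCR Dox+, and H4C1 read 0, 0.187 and 0 CPM in iKD2 Dox+, 0.974 and 3.87 CPM in iKD2 Dox- and 0 and 9.3 CPM in iSCR Dox+. H2BC14 read 0.778, 5.24 and 0.972 CPM in iKD2 Dox+, 0 and 0.708 CPM in iKD2 Dox- and 0 and 1.81 CPM in iSCR Dox+. H3C2 did not meet the criterion when iKD2 Dox+ b, the library labelled iKD2 Dox+ c or iKD2 Dox- b was left out, with log2 fold changes of 0.88, 0.92 and 0.56. Its log2 fold change was 1.38 without iKD2 Dox- c, and it met the criterion in 13 of 16 alternatives. Leaving out iKD2 Dox- c gave a call for H4C11 (adjusted p = 0.000566), but that fit sets iKD2 Dox+ against a single library, iKD2 Dox- b, at 0 counts, with the spread taken from the other groups. With iKD2 Dox+ b left out 2 members were past the criterion, and the share of all genes past it in that fit is not given.

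The second comparison held doxycycline constant and changed the shRNA, iKD2 Dox+ against iSCR Dox+. It shares the iKD2 Dox+ libraries with the first. No member passed an adjusted p of 0.05 in edgeR, beside 0.0262% of all genes, and 3 members had an unadjusted p under 0.05. These 3, H2BC6, H4C12 and H4C14, were all higher and met the study's criterion, which 3.87% of all genes met as higher and 2.64% as lower. H2BC6 (ENSG00000274290), an H2B gene, read 26.7, 47.6 and 38.4 CPM in iKD2 Dox+, 44.1 and 12.4 CPM in iKD2 Dox- and 4.74 and 6.35 CPM in iSCR Dox+. Both iSCR Dox+ libraries lay below the other 5, with log2 fold change 2.76, SE 0.78, unadjusted p = 0.00186, adjusted p = 0.42. Between the controls it gave log2 fold change 2.35, SE 0.80, unadjusted p = 0.00763, adjusted p = 0.826, and against iKD2 Dox- it gave log2 fold change 0.41, SE 0.70, unadjusted p = 0.561, adjusted p = 1, and the ranges of iKD2 Dox+ and iKD2 Dox- overlapped. DESeq2, which called many more of all genes here than edgeR (counts in the closing section), called H2BC6 with an adjusted p of 0.00184. By limma voom no member was called.

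For H4C12 the fit gave log2 fold change 1.68, SE 0.72, unadjusted p = 0.0305, adjusted p = 0.699, with the ranges of the groups overlapping, and its value rested on iKD2 Dox+ a, the library at 109 CPM. Without it the criterion was not met, nor without iSCR Dox+ b. For H4C14 it gave log2 fold change 1.46, SE 0.69, unadjusted p = 0.0461, adjusted p = 0.699, higher in 3 of 3 libraries, but the criterion held in only 5 of 16 alternatives, against 10 of 16 for H4C12 and 15 of 16 for H2BC6. H2BC6, H4C12 and H4C14 all have counts shared with other genes, so that the fit to whole-count genes alone, which is among the 16, did not test them. No member met the criterion in that fit. The median log2 fold change of the members was 0.22, beside 0.08 for all genes, with 38 above 0 and 24 below. Type medians were 0.62 for H1, -0.04 for H2A, 0.25 for H2B, 0.84 for H3 and -0.35 for H4. Of the 12 tested H3 genes 11 were fitted above 0, beside 12134 of all 22926 genes tested. The identical copies H3C14 and H3C15 are counted separately, and none of the 11 passed the test. They include H3C6 and H3C8, with log2 fold changes of only 0.0076 and 0.0485.

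The groups did not overlap for 13 members that were higher in iKD2 Dox+ (21%), beside 11.3% of all genes, and for 3 that were lower (4.84%), beside 9.23%. The 13 were H1-3, H1-5, H2AC6, H2AC7, H2AC8, H2BC6, H2BC8, H2BC9, H2BC17, H3C2, H3C12, H3C13 and H4C14, and the 3 were H2AC11, H2AC17 and H4C16. For H4C14 the ranges overlapped once its copy H4C15 was added. H1-6 and H3C13 were fitted highest, but iSCR Dox+ held 3 counts or fewer of each, and H3C13 read 3.41, 2.56 and 4.52 CPM in iKD2 Dox+, 11.3 and 3.32 CPM in iKD2 Dox- and 0 and 0.134 CPM in iSCR Dox+. H4C1 and H4C6 were fitted lowest and held 3 counts or fewer in a library, and H4C11 followed (log2 fold change -0.82, SE 2.21, unadjusted p = 0.727, adjusted p = 0.979). Without iSCR Dox+ b, edgeR called H4C8 (adjusted p = 0.0152), with a single iSCR Dox+ library left and its spread taken from the other groups. H4C8 read 3.47, 15.2 and 20.0 CPM in iKD2 Dox+, 13.4 and 30.0 CPM in iKD2 Dox- and 0.0677 and 14.6 CPM in iSCR Dox+. The members past the criterion numbered 2 when the library left out was iKD2 Dox+ a or the library labelled iKD2 Dox+ c. The share of all genes past it in those fits is not given.

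The controls were compared with each other, iKD2 Dox- against iSCR Dox+. No member passed an adjusted p of 0.05 in edgeR, beside 0.0131% of all genes. With an unadjusted p under 0.05, H2BC6 was higher and H2AC19 lower, and both met the criterion, beside 2.63% of all genes higher and 1.75% lower. H2AC19 gave log2 fold change -0.89, SE 0.41, unadjusted p = 0.0474, adjusted p = 0.826, and its ranges in iKD2 Dox- and iSCR Dox+ did not overlap. It met the criterion in 11 of 16 alternatives, and neither without iKD2 Dox- c nor without iKD2 Dox+ b, with log2 fold changes of -0.61 and -0.89, nor with the library letter as a replicate block (-0.31). H2BC6 met it in 13 of 16, and not without iKD2 Dox- b, where its log2 fold change was 1.15. The 16 include the fit to whole-count genes alone, which did not test H2AC19 or H2BC6. The highest and lowest folds that could be given were those of H3C12 (log2 fold change 3.42, SE 2.25, unadjusted p = 0.143, adjusted p = 0.826) and H2AC13 (log2 fold change -1.09, SE 0.66, unadjusted p = 0.114, adjusted p = 0.826), both named after their values were seen. By DESeq2, which again called many more of all genes than edgeR, H2BC6 (adjusted p = 0.0408) and H3C13 (adjusted p = 0.0468) were called, and by limma voom none. The groups did not overlap for 18 members that were higher in iKD2 Dox- (29%), beside 19.9% of all genes, and for 10 that were lower (16.1%), beside 13.2%. Of the 18, 8 were H3 genes, of which 12 were tested, with the identical copies H3C14 and H3C15 counted separately. Of the 10, 6 were H2A genes, of which 15 were tested. The median log2 fold change was 0.05 for members and 0.04 for all genes. Type medians were 0.28 for H1, -0.00 for H2A, -0.01 for H2B, 0.73 for H3 and -0.24 for H4, and the comparison shares the iSCR Dox+ libraries with the second, in which the H3 median was 0.84. Leaving out a library of either control leaves that group with 1 library and takes its spread from the other groups. Leaving out iSCR Dox+ b gave a call for H4C8 and leaving out iKD2 Dox- c a call for H4C11. With iKD2 Dox+ a left out 3 members were past the criterion, and the share of all genes past it in that fit is not given.

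**Figure D4:**
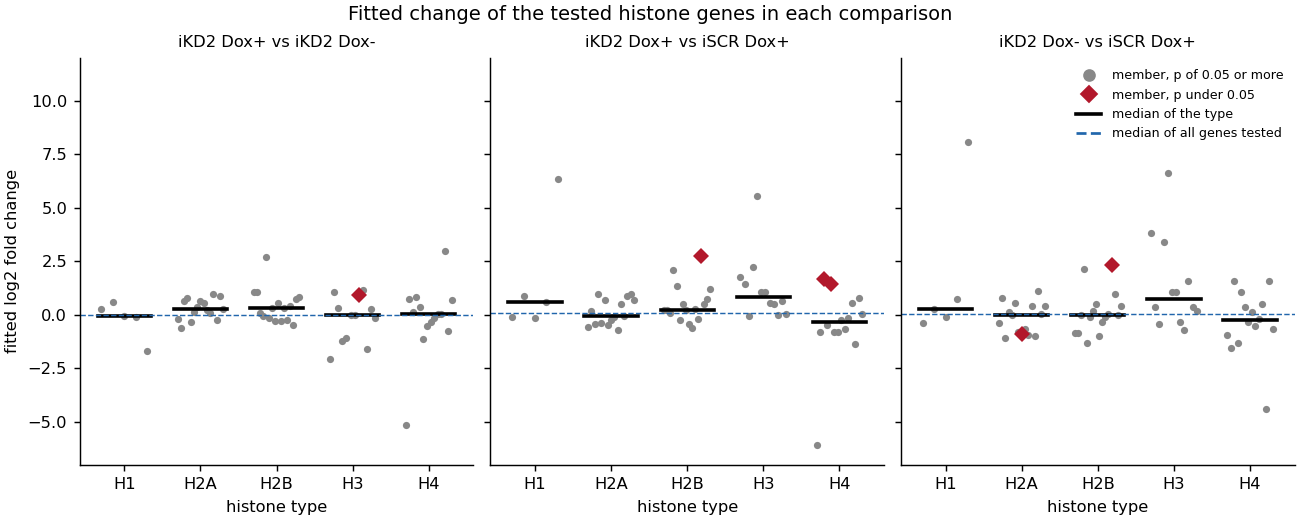
Fitted log2 fold change (vertical axis) of the 62 tested members by histone type, in 1 panel for each comparison. Circles are members with an unadjusted p of 0.05 or more, red diamonds those under 0.05, black bars the type medians and the dashed line the median of all genes tested. Values beyond 4 in size come from genes with a library of 3 counts or fewer. The red diamonds are H3C2 (left), H2BC6, H4C12 and H4C14 (middle), and H2AC19 and H2BC6 (right), and none passed the adjusted threshold.

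The genes that make and process histone mRNA were given by list. Of 22 genes of histone mRNA synthesis and 3′ end processing, none passed the adjusted threshold in any comparison. By the criterion ERI1 and SYMPK were higher and SNRPB lower in iKD2 Dox+ against iSCR Dox+, all 3 named after their values were seen, and no gene of the list met it in the other two comparisons. SLBP, the stem-loop binding protein, read 41.8, 46 and 32.8 CPM in iKD2 Dox+, 31 and 43.7 CPM in iKD2 Dox- and 85 and 38.7 CPM in iSCR Dox+. iSCR Dox+ a was highest and the others overlapped. NPAT, the coactivator at histone loci, read 46.9, 8.49 and 39 CPM in iKD2 Dox+, 17.5 and 26.7 CPM in iKD2 Dox- and 8.06 and 65.9 CPM in iSCR Dox+, and CASP8AP2, which acts with it, read 22.9, 1.12 and 36 CPM in iKD2 Dox+, 15.4 and 5.66 CPM in iKD2 Dox- and 0 and 26.8 CPM in iSCR Dox+. In both, the values of iKD2 Dox+ and those of iSCR Dox+ spanned the values of iKD2 Dox-. The list summed to 1149 to 1349 CPM over the 7 libraries.

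Of 12 histone genes listed here as replication-independent, H2AX among them, 11 were tested and none was called. Only MACROH2A1, named after its values were seen, met the criterion, with higher values in iKD2 Dox- in the comparison of the controls. H3-3A read 160.4, 145 and 139 CPM in iKD2 Dox+, 176 and 191 CPM in iKD2 Dox- and 108 and 138 CPM in iSCR Dox+, and H3-3B, which encodes the same protein, read 377, 347 and 309 CPM in iKD2 Dox+, 309.9 and 232 CPM in iKD2 Dox- and 402 and 360.0 CPM in iSCR Dox+. H3-3A was highest and H3-3B lowest in iKD2 Dox- by group means. H2AX, the variant phosphorylated at DNA breaks, read 84.8, 66.5 and 87.5 CPM in iKD2 Dox+, 105 and 65.3 CPM in iKD2 Dox- and 82 and 97.9 CPM in iSCR Dox+, and H2AZ1, a variant at promoters, read 52.6, 83.3 and 60.7 CPM in iKD2 Dox+, 71.1 and 36.5 CPM in iKD2 Dox- and 44.8 and 69 CPM in iSCR Dox+. The groups overlapped for H2AX and H2AZ1. None of 15 histone chaperone genes was called, and their sum was 1449 to 1726 CPM. By the criterion NAP1L4 was higher in iKD2 Dox+ than in iKD2 Dox- and CHAF1A was higher in the second comparison, while between the controls RBBP4 was higher and NAP1L4 lower in iKD2 Dox-, all 3 named after their values were seen.

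S phase genes, measured beside the members because histone mRNAs are made in that phase, summed to 1336, 1093 and 1206 CPM in iKD2 Dox+, 960.2 and 984 CPM in iKD2 Dox- and 1075 and 639.9 CPM in iSCR Dox+. All 3 iKD2 Dox+ libraries lay above all 4 controls, by a small margin over iSCR Dox+ a. The sum includes MKI67, whose values are given below, and its genes did not all move alike. Against iKD2 Dox- 19 were fitted above 0 and 8 below, and against iSCR Dox+ 22 above and 5 below. None of the 27 genes was called, and the criterion was met by MKI67 against iKD2 Dox- and by TYMS, named after its values were seen, against iSCR Dox+, both higher in iKD2 Dox+. MKI67, a gene of cycling cells, read 384, 255 and 287 CPM in iKD2 Dox+, 141 and 165 CPM in iKD2 Dox- and 294 and 118 CPM in iSCR Dox+, and PCNA, the DNA polymerase clamp, read 46.5, 26.7 and 24.9 CPM in iKD2 Dox+, 40.0 and 15.8 CPM in iKD2 Dox- and 9.21 and 35.2 CPM in iSCR Dox+. MKI67 was higher in all 3 iKD2 Dox+ libraries than in iKD2 Dox-, and iSCR Dox+ a lay between the iKD2 Dox+ values. Their part in the histone sums was not tested. Other RNAs without a poly(A) tail, mostly RN7SL1 and RN7SL2 of the signal recognition particle, summed to 21482, 22647 and 15098 CPM in iKD2 Dox+, 28863 and 21384 CPM in iKD2 Dox- and 26122 and 19375 CPM in iSCR Dox+. The library labelled iKD2 Dox+ c was lowest and iKD2 Dox- b highest, an order unlike that of the histone sum, and of 12 tested genes none was called. SNORD3A met the criterion as lower in iKD2 Dox+ than in iKD2 Dox- and SCARNA2 as higher in iKD2 Dox- between the controls, both named after their values were seen, while RN7SK and RMRP were at 0 in all libraries.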

How the data were processed

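Libraries were made from total RNA with the SMARTer Stranded Total RNA-Seq kit v2. Per the labels and the study's methods, the authors trimmed reads with fastp, quantified transcripts with kallisto and summed them to genes with tximport, and the deposited table holds estimated counts per gene, not normalized and not always whole. The build, the annotation release, the tool versions and the strand setting are not given in the sources used here. kallisto divides reads that fit several transcripts, so that counts of near-identical histone copies are estimates: 33 members had a count in at least 1 library that was not whole (within 1e-06), and 18 had under 50% of their 31-base words in no other gene of GENCODE release 29.

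Estimated counts were rounded and tested with edgeR 4.0.16 (R 4.3.3), quasi-likelihood with robust dispersion, filterByExpr by group, TMM factors, all 3 groups in 1 fit and Benjamini-Hochberg adjustment over the 22926 genes kept. Levels are TMM-scaled CPM. The study's criterion was an unadjusted p under 0.05 with more than 1.5-fold change. The CV is the root mean square over the groups. Log2 fold changes are not given where a library of either group had 3 counts or fewer. Sums and lists were described without a test. The code was tested on simulated data. Alternatives used DESeq2 1.42.0 and limma 3.58.1. Members matched by symbol, 2 of them (H2AC18 and H2AC19) through older names. Named genes were METTL14, the 3 members of each type with the highest means, members past either threshold, the 3 highest and 3 lowest fold changes in each comparison, list genes with an adjusted p under 0.05, and fixed control genes (SLBP, NPAT, CASP8AP2, H2AX, H3-3A, H3-3B, H2AZ1, PCNA and MKI67). A further control gene is not reported here. Members and lists were chosen with earlier results of these data known.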

Additional observations from a re-analysis of the deposited data

How the results depend on the processing

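Over the 3 comparisons (induced against uninduced iKD2 first, induced iKD2 against iSCR second, and last the 2 controls), the genes called were 9, 6 and 3 of all tested, and 51, 66 and 32 with no filter, 2, 3 and 1 among genes averaging 5 CPM or more, 231, 755 and 428 by DESeq2, and 17 and 24 in the first 2 among whole-count genes. With only the 2 groups compared the third count was 0. Leaving out 1 library gave 2 to 115, 2 to 544 and 2 to 445. The replicate block (library letter as a term) gave 18, 15 and 8. The letters are shared by at most 2 libraries of any pair of groups, and the deviations of same-lettered libraries correlated at -0.0125 to 0.0104. No pairing by letter was seen in these values, but with so few libraries in a group they cannot show that none was made. Members called stayed at 0 in each comparison except by DESeq2 (1 in the second and 2 in the third) and with 1 library left out (0 to 1 in each). Members past the criterion were 1, 3 and 2. In the first they were 2 with no filter, 3 by DESeq2, 2 by limma voom, 3 with 2 groups and 1 to 4 with a library left out. In the second they were 1 among genes averaging 5 CPM or more, 8 by DESeq2, 1 with 2 groups, 0 among whole-count genes and 2 to 7 with a library left out. In the third they were 4 with upper-quartile factors, 1 among genes averaging 5 CPM or more, 8 by DESeq2, 0 among whole-count genes and 2 to 9 with a library left out. The share of all genes past the criterion is not given for these alternatives, so the counts are no result about the members. The cause of these shifts was not tested.

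In alternatives added after the data were seen, whole-count members gave type sum log2 ratios of 0.49 (H2B) and 0.50 (H3) in the first comparison, 0.34 (H2A) and 0.80 (H2B) in the second, and 0.28 (H2A), 0.32 (H2B) and 0.0041 (H3) in the third, where the sum of all members gave 0.046 against -0.055. With a library left out, H1 ran from -0.15 to 0.21 in the first and -0.22 to 0.14 in the third, and H2A from 0.084 to 0.75 and -0.74 to -0.070. The CV of the summed members was then 8.83% with whole-count members alone. Signs turned for H4C12 in the first comparison by limma voom (-0.32) and the block (-0.88), and with a library left out, as log2 fold changes, for H4C12 (-1.10 to 0.55), H2BC6 (-0.24 to 1.60) and H4C14 (-0.017 to 0.92) in the first, H2AC19 (-0.67 to 0.070) and H4C11 (-1.67 to 0.20) in the second and H3C2 (-0.80 to 0.066) in the third. Of 69 fold changes of named members, 29 turned sign in at least 1 alternative. With 2 or 3 libraries a group, depth was not the limit for abundant members, whose spread between libraries far exceeded counting error.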
